A study of Mus musculus with 2 samples.

Results

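The glutathione, glucuronosyl and sulfo transferases, the enzymes that attach glutathione, glucuronic acid or sulfate to drugs, hormones and reactive metabolites, were examined in liver sinusoidal endothelial cells (LSEC), which line the capillaries of the liver. Members were all array probes whose gene name begins with Gst followed by a class letter and a number, or with Mgst, Ugt or Sult followed by a number. They numbered 50 of 31882 genes: 24 glutathione transferases, 14 glucuronosyltransferases and 12 sulfotransferases, read by 71 probes on 89 spots. The ob/ob cells came from 1 leptin-deficient ob/ob mouse, which becomes obese, and the wild-type cells from 1 wild-type mouse. Both mice were male and 8 weeks old. The cells of both were freed with collagenase and cultured overnight in DMEM with 10% fetal bovine serum, and the Cy3-labelled RNA of each was hybridised to 1 array. With 1 array per genotype there was no replicate and no test, and genotype cannot be told apart from the mouse, the cell preparation or the array.

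Conjugation is the step of detoxification in which a foreign or endogenous compound is made water-soluble by the addition of a charged group. Glutathione transferases join glutathione to electrophiles and several of them also reduce peroxides, glucuronosyltransferases use UDP-glucuronic acid, and sulfotransferases use the sulfate donor PAPS. In liver, most glucuronosyltransferases and sulfotransferases are best known from hepatocytes, while glutathione transferases are found in many cell types, and several of their genes respond to the oxidant-sensing factor NRF2 through the antioxidant response element.

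Each gene is read by 60-base oligonucleotides, and close paralogs have similar ones, so the probes of 3 such pairs are shown first. Capitals mark the bases that differ between the aligned probes of a pair. Positions are on mouse build mm9 as the array files give them; the part of the gene under each probe was not analysed here.
Gsta1, chr9:78090411-78090470, plus strand: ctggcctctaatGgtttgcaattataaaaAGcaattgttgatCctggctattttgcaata
Gsta2, chr9:78178856-78178915, minus strand: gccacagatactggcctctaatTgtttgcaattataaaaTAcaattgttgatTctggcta
Gstp1, chr19:4035908-4036723, minus strand: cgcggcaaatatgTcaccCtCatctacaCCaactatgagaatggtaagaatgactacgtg
Gstp2, chr19:4040983-4041042, minus strand: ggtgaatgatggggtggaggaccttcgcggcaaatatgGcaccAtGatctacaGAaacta
Ugt2b37, chr5:87669707-87669766, minus strand: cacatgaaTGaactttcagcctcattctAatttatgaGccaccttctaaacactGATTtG
Ugt2b5, chr5:87554155-87554214, minus strand: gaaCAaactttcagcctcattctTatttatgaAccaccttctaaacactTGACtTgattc
The Gsta1 and Gsta2 probes matched at 46 of 50 aligned bases, the Gstp1 and Gstp2 probes at 30 of 35, and the Ugt2b37 and Ugt2b5 probes at 46 of 55. RNA of 1 gene of such a pair may bind the probe of the other, so the split of signal within these pairs, and among the other Gstm and Ugt2b paralogs, is uncertain.

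The probes of the genes with the largest differences among those measured on both arrays are shown next. They are both probes of Gsta3, the lowest of the members in ob/ob relative to wild-type cells, and those of 3 genes that were over 10-fold higher; the fourth such gene is Ugt2b5, shown above. The span given for the Ugt2b36 probe is wider than the probe itself.
Gsta3, chr1:21255189-21255248, plus strand: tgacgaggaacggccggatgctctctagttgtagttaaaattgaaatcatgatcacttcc
Gsta3, chr1:21255043-21255102, plus strand: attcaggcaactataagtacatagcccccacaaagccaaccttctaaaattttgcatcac
Ugt2b36, chr5:87495455-87509913, minus strand: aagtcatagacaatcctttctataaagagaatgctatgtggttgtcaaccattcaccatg
Ugt2b38, chr5:87839345-87839404, minus strand: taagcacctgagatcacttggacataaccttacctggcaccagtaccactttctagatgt
Sult1e1, chr5:88005187-88005246, minus strand: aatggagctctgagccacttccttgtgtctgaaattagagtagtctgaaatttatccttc

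Levels are given as scaled signals: the background-subtracted signal of a probe divided by its array's own 75th percentile, which was 1430 on the ob/ob array and 989 on the wild-type array. A difference is the log2 scaled signal in ob/ob cells minus that in wild-type cells, so 1 is 2-fold. Scaled signals of different probes are not compared with each other, because probes differ in how strongly they bind. A gene was measured on an array where over 50% of a probe's spots were well above background by the scanner software's own flag. Over all 18139 genes measured on both arrays the median difference was -0.12 and the middle 50% lay between -0.34 and 0.16. The scanner software's error model gave a technical SD of 0.20 to 0.35 for the difference of a member measured on both arrays, and the spread between probes for the same gene was 0.33 (SD, 3693 genes). Neither holds the spread between mice.

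Of the 50 members, 31 were measured in both genotypes, 9 on the ob/ob array alone, 1 on the wild-type array alone and 9 on neither. Over all genes 6.84% were measured on the ob/ob array alone and 0.856% on the wild-type array alone. Among the 31 members, 10 were at least 2-fold higher in ob/ob cells, where 5.82% of all genes were, and 3 were at least 2-fold lower, where 2.29% were. The 3 classes did not share 1 direction. All 6 glucuronosyltransferases measured on both arrays were at least 2-fold higher, with a median of 2.78. Among the 3 sulfotransferases 2 were higher and the median was 1.19. Of the 22 glutathione transferases, 2 were at least 2-fold higher, 3 at least 2-fold lower and 17 within 2-fold, and their median was -0.25, with the middle 50% between -0.46 and 0.23.

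**Figure D1:**
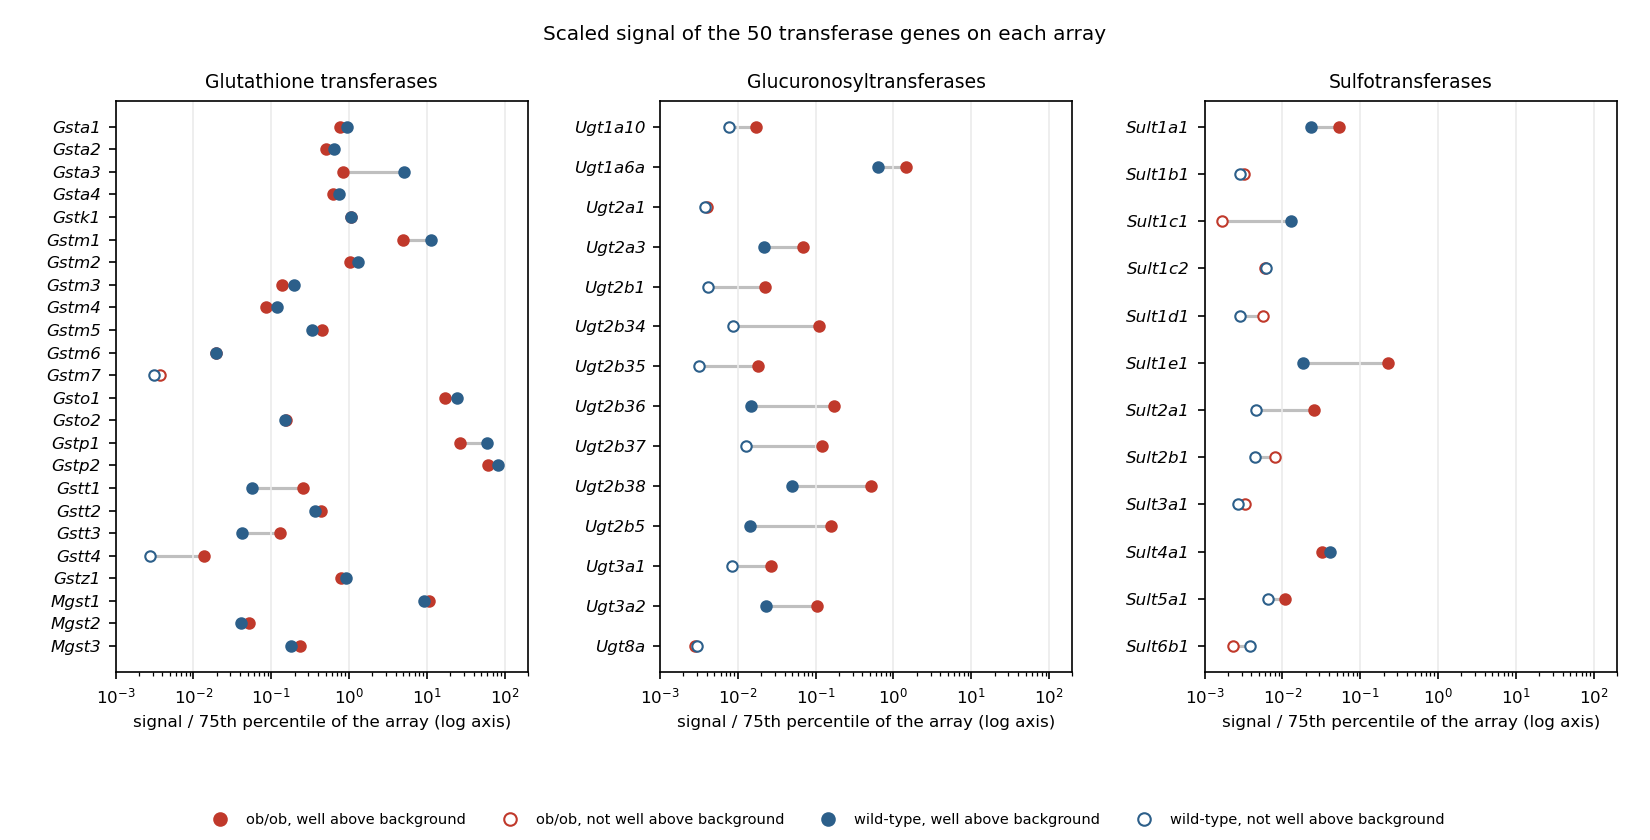
Scaled signal of each of the 50 genes on the ob/ob array (red) and the wild-type array (blue), on a log axis, with open circles for signals not well above background. The ob/ob points lie to the right of the wild-type points for the glucuronosyltransferases measured on at least 1 array, while most glutathione transferase pairs lie close together. For the 6 glucuronosyltransferases measured on the ob/ob array alone, that order follows largely from the filter.

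The median of the glutathione transferases was 2.46 below that of the 9 glucuronosyl and sulfo transferases together, whose median was 2.21. The gap kept its sign under each of the 8 other ways of processing listed in the closing section. It was smallest, at -0.54, with normexp background correction and the 75th percentile. Not all of the 8 could have changed the sign. Array-median scaling shifts every difference equally and so leaves the gap at -2.46, and the authors' table holds the same intensities (-2.47). Taking genes measured on at least 1 array (-2.56) adds 8 glucuronosyl and sulfo transferases that passed on the ob/ob array alone, and 1 on the wild-type array alone. The share of all genes on each side depended on the processing, with 1056 higher and 416 lower as reported, 767 and 977 when arrays were scaled on their median, which shifts every difference by -0.28, and, after normexp and 75th-percentile scaling, 369 higher and 3828 lower. The classes also lie at different signal ranges. Among all genes within the mean signal range of the measured glucuronosyltransferases, 10.1% were at least 2-fold higher and the median was 0.01. Within the range of the sulfotransferases 13.0% of all genes were higher, and within the range of the glutathione transferases 6.15% were.

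**Figure D2:**
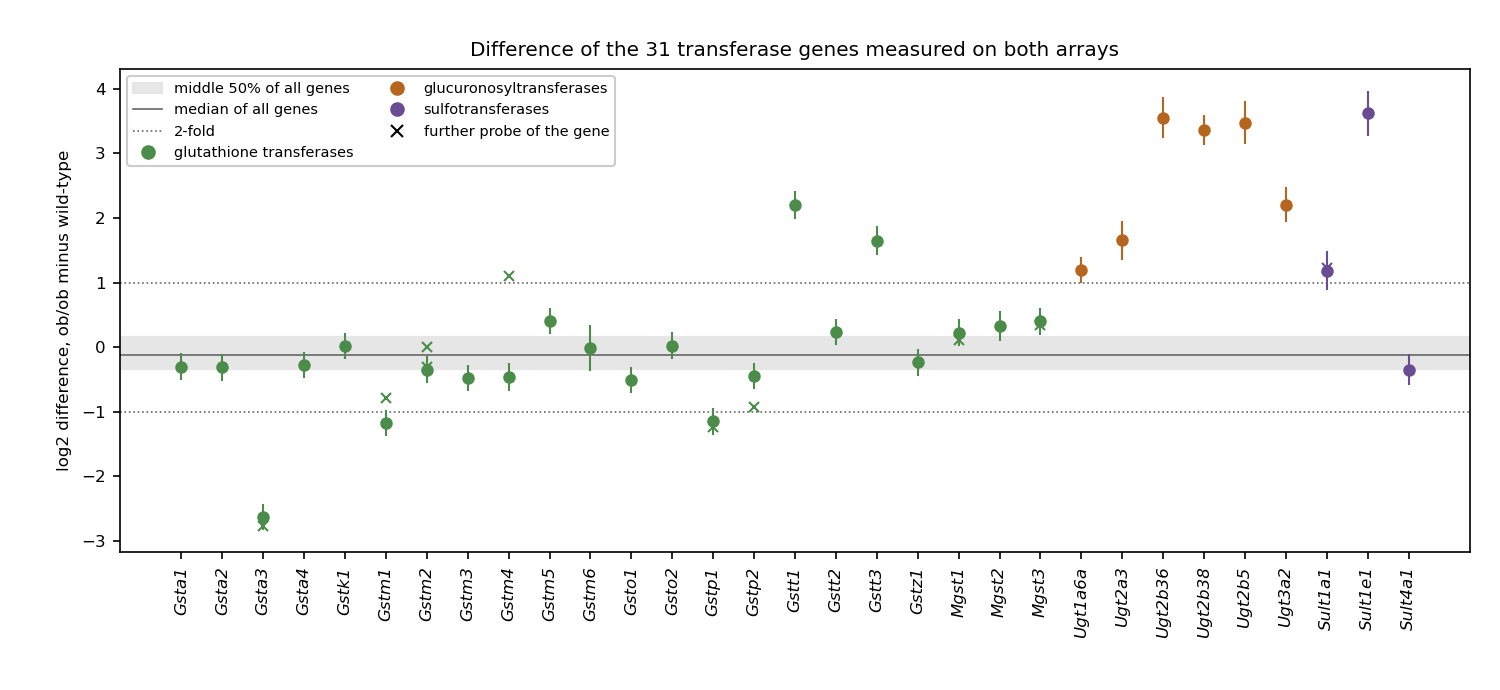
The log2 difference, ob/ob minus wild-type, of the 31 genes measured on both arrays, with the error-model SD as bars and further probes of the same gene as crosses. The grey band is the middle 50% of all genes, from -0.34 to 0.16, and dotted lines mark 2-fold. All 6 glucuronosyltransferases lie above the upper line, while 17 of 22 glutathione transferases lie between the lines.

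The alpha glutathione transferases conjugate electrophiles and reduce lipid hydroperoxides. Gsta3, the mouse enzyme known for conjugating the aflatoxin epoxide, had a scaled signal of 0.832 in ob/ob cells and 5.14 in wild-type cells, a difference of -2.63, or 6.18-fold lower. Its other probe read 0.713 in ob/ob cells and 4.86 in wild-type cells, a difference of -2.77. Both probes therefore gave the same direction with a gap of less than the SD between probes, and Gsta3 was at least 2-fold lower under all 7 alternatives run for single genes. Gsta1 read 0.776 in ob/ob and 0.955 in wild-type cells (-0.30). Its close copy Gsta2 read 0.511 in ob/ob and 0.635 in wild-type cells (-0.31). These 2 differences lie within the middle 50% of all genes, and with probes that match at most bases they are not independent. Gsta4, which conjugates the lipid peroxidation product 4-hydroxynonenal, read 0.615 in ob/ob and 0.744 in wild-type cells (-0.27). All 4 alpha genes had negative differences, with a median of -0.31 that stayed negative under each processing tried.

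Because several alpha transferase genes are known targets of NRF2, the promoter of Gsta3 is shown from RefSeq (GRCm38.p6), as the 250 bases before the gene start. Capitals mark the match to the antioxidant response element, searched as TGACNNNGC on this strand and GCNNNGTCA for the other. It begins 121 bases before the start.
Gsta3, chr1:21240335-21240584, plus strand: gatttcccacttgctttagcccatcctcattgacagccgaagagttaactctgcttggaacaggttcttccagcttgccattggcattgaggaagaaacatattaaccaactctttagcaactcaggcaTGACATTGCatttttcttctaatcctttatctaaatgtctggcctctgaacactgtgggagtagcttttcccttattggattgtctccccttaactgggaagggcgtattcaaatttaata
The windows searched ran from 250 bases before to 50 after each start. RefSeq windows were matched for 45 of the 50 members. The motif was in 4 of these, Gsta3, Gstm5, Gstm7 and Mgst1, all glutathione transferases, and in 12.4% of all 32851 windows. Among them, Gstm5 (0.41) and Mgst1 (0.23) had positive differences and Gstm7 was measured on neither array. A site of the factor HNF1, searched as GTTAAT or ATTAAC, was in 7 of the 45 and 7.10% of all windows. The 7 were 4 of 13 glucuronosyltransferases, 2 of 10 sulfotransferases and 1 of 22 glutathione transferases, Gsta3. A match describes the letters and shows no binding.

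The mu class, encoded in 1 gene cluster on chromosome 3, conjugates epoxides and quinones. Gstm1 read 4.97 in ob/ob and 11.2 in wild-type cells with its brighter probe (-1.17, or 2.25-fold lower). The files place that probe on chromosome 5, at chr5:117082490-117082549, away from the Gstm cluster. The Gstm1 probe on chromosome 3 read 0.755 in ob/ob and 1.30 in wild-type cells (-0.78), which is within 2-fold. The call of Gstm1 as at least 2-fold lower thus rested on 1 probe, and the mean of both probes gave -0.98. The brighter probe itself lay just inside 2-fold with either form of normexp (-0.95 and -0.94) and with quantile normalization. Gstm2 read 1.02 in ob/ob and 1.30 in wild-type cells (-0.35), with its other 2 probes at -0.30 and 0.00. Gstm3 read 0.140 in ob/ob and 0.195 in wild-type cells (-0.48), while its second probe was measured only on the ob/ob array, with at least 1.70-fold more signal there. Gstm5 read 0.450 in ob/ob and 0.339 in wild-type cells, the only positive difference of the class at 0.41 when each gene is read by its brightest probe. Apart from Gstm1, none of these genes lay beyond 2-fold.

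Probes disagreed for Gstm4. Its brighter probe read 0.0867 in ob/ob and 0.120 in wild-type cells (-0.46), and the other read 0.0380 in ob/ob and 0.0178 in wild-type cells (1.10). That gap of 1.56 was the largest among the 9 members with more than 1 probe measured on both arrays, of which 7 had the same sign on all their probes. Gstm6 read 0.0196 in ob/ob and 0.0197 in wild-type cells (-0.01), and another probe of it was measured on the ob/ob array only, at least 1.54-fold higher. Gstm7 was measured on neither array. The median of the 6 measured mu genes was -0.40. It was -0.11, with 2 genes positive, when probes were averaged, and -0.93 with normexp and the 75th percentile. The mu probes on chromosome 3 lie within 146 kb, and the second Gstm4 probe is the only one measured on both arrays there that passed 2-fold.

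The pi class, which conjugates electrophiles and is also known to bind and restrain the stress kinase JNK, had negative differences. Gstp1 read 26.9 in ob/ob and 59.7 in wild-type cells (-1.15, or 2.22-fold lower), and its second probe gave -1.23 with 14.6 in ob/ob and 34.3 in wild-type cells. Gstp2 read 60.7 in ob/ob and 82.7 in wild-type cells (-0.45), and its second probe gave -0.93 with 30.6 in ob/ob and 58.2 in wild-type cells. All 4 probes of the pair were thus lower in ob/ob cells. The median of the 2 genes, -0.80, was negative under each processing, as was that of all genes. Relative to the all-gene median it lay between -0.31, with quantile normalization, and -0.93, with each probe counted. Gstp1 was within 2-fold with either form of normexp or with quantile normalization, between -0.76 and -0.95. Among the brightest 25% of all genes, where Gstp1, Gstp2, Gstm1, Gsto1 and Mgst1 lie, 1.70% were at least 2-fold lower and the median was -0.29.

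The omega, zeta and kappa classes have roles beyond conjugation and stayed within 2-fold. Gsto1, which reduces dehydroascorbate and protein-glutathione disulfides, read 17.0 in ob/ob and 24.2 in wild-type cells (-0.51). Gsto2 read 0.155 in ob/ob and 0.152 in wild-type cells (0.03). Gstz1, the maleylacetoacetate isomerase of tyrosine breakdown, read 0.790 in ob/ob and 0.930 in wild-type cells (-0.23). Gstk1, of mitochondria and peroxisomes, read 1.08 in ob/ob and 1.06 in wild-type cells (0.02, and -0.26 with scaling on the array median). Among these 4 genes, only Gsto1 lay outside the middle 50% of all genes.

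The theta class, which acts on small halogenated compounds, held the 2 glutathione transferases that were at least 2-fold higher. Gstt1 read 0.260 in ob/ob and 0.0567 in wild-type cells, a difference of 2.20 or 4.59-fold. Gstt3 read 0.131 in ob/ob and 0.0419 in wild-type cells, a difference of 1.65 or 3.14-fold. Gstt2 read 0.435 in ob/ob and 0.370 in wild-type cells (0.24). Gstt4 was measured in ob/ob cells only, with 0.0139 in ob/ob and 0.00279 in wild-type cells. For such genes a lower bound on the fold is given, the brighter signal divided by whichever is larger, the dimmest measured signal of the other array (11.7 on the ob/ob array and 12.3 on the wild-type array, before scaling) or the dim probe's own signal, which made Gstt4 at least 1.12-fold higher. The 4 genes lie within 58.3 kb on chromosome 10. Their median of 1.65, over the 3 measured on both arrays, became -0.08 with normexp and the 75th percentile, where Gstt1 was 0.50 and Gstt3 -0.18.

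The microsomal class are membrane enzymes that conjugate and reduce lipid peroxides, and some make leukotriene C4. Mgst1 read 10.8 in ob/ob and 9.26 in wild-type cells (0.23, other probe 0.11). Mgst2 read 0.0519 in ob/ob and 0.0414 in wild-type cells (0.33). Mgst3 read 0.235 in ob/ob and 0.178 in wild-type cells (0.40, other probe 0.34). The 3 genes were slightly higher as scaled here and none passed 2-fold. Their median of 0.33 was 0.05 with array-median scaling and -0.28 with normexp and the 75th percentile.

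The glucuronosyltransferases differed more. In the UGT2 family, which conjugates steroids, bile acids and fatty acids, Ugt2b36 read 0.174 in ob/ob and 0.0148 in wild-type cells, a difference of 3.55 or 11.7-fold. Ugt2b5 read 0.158 in ob/ob and 0.0142 in wild-type cells, a difference of 3.47 or 11.1-fold. Ugt2b38 read 0.516 in ob/ob and 0.0502 in wild-type cells, a difference of 3.36 or 10.3-fold. These 3 were each over 10-fold higher as scaled here. With normexp and quantile normalization their differences were 1.29 for Ugt2b36, 1.21 for Ugt2b5 and 1.83 for Ugt2b38, and with normexp and the 75th percentile 0.34 for Ugt2b36, 0.21 for Ugt2b5 and 1.22 for Ugt2b38. Ugt2a3 read 0.0692 in ob/ob and 0.0219 in wild-type cells, a difference of 1.66 or 3.15-fold. The wild-type signals of Ugt2b36 and Ugt2b5, 14.7 and 14.1 before scaling, stand close to the dimmest signal the wild-type array measured, so their folds rest on weak wild-type signals. That of Ugt2a3 was also weak, at 21.7.

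Another 4 UGT2 genes were measured in ob/ob cells alone. Ugt2b37 read 0.121 in ob/ob and 0.0127 in wild-type cells and was at least 9.49-fold higher. Ugt2b34 read 0.110 in ob/ob and 0.00869 in wild-type cells and was at least 8.80-fold higher. Ugt2b1 read 0.0224 in ob/ob and 0.00409 in wild-type cells (at least 1.79-fold), and Ugt2b35 read 0.0184 in ob/ob and 0.00314 in wild-type cells (at least 1.47-fold). The bounds of the first pair come close to the folds of the Ugt2b genes measured on both arrays, while those of the last pair are under 2-fold. With probes that match at 46 of 55 aligned bases, the Ugt2b37 and Ugt2b5 values are not independent. Ugt2a1, known from the olfactory epithelium, was measured on neither array.

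The 9 UGT2 genes lie with Sult1b1, Sult1d1 and Sult1e1 in 686 kb of chromosome 5, chr5:87318849-88005246. Of these 12 neighbours, 9 were measured on the ob/ob array and 5 on the wild-type array, and all 5 measured on both were at least 2-fold higher. Over all genes 5.82% were at least 2-fold higher and 6.84% were measured on the ob/ob array alone. Within the signal ranges of the glucuronosyltransferases and the sulfotransferases, 10.1% and 13.0% of all genes were higher. Neighbours measured on the ob/ob array alone entered through the array where they were brighter. The 3 measured on neither, Ugt2a1, Sult1b1 and Sult1d1, lie side by side between Ugt2b38 and Sult1e1. Their signals were too dim for a difference to be given, so whether they differed like their neighbours cannot be told.

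**Figure D3:**
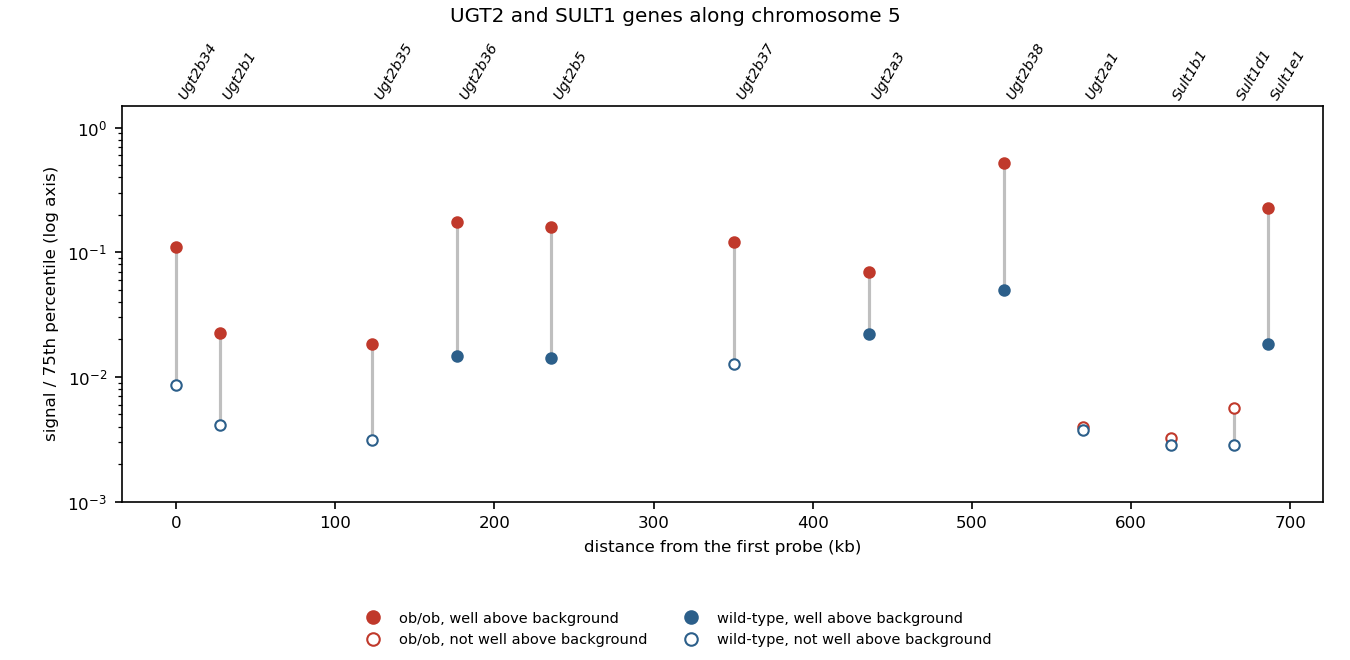
Scaled signal, on a log axis, of the 12 UGT2 and SULT1 genes of the chromosome 5 cluster against the distance of their probe from the first one in kb; red is the ob/ob array, blue the wild-type array, open circles are not well above background. Ugt2a1, Sult1b1 and Sult1d1 are open on both arrays, and 9 of the 12 genes are filled on the ob/ob array.

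In the UGT1 and UGT3 families, Ugt1a6a, which conjugates planar phenols, read 1.44 in ob/ob and 0.628 in wild-type cells, a difference of 1.20 or 2.29-fold. Its other 2 probes were measured on neither array. The measured probe lies 79.7 kb beyond the first of these, which read 2.37 in ob/ob and 2.53 in wild-type cells before scaling. The last lies 80.7 kb beyond the first and read 7.18 in ob/ob and 3.67 in wild-type cells. The genes of the Ugt1a locus share their last exons, and RefSeq ends 7 of the 9 at the same base, while the array names 2 of them. The measured Ugt1a6a probe may therefore also read RNA of its neighbours, and the 2.29-fold cannot be assigned to Ugt1a6a alone. Ugt1a10 was measured in ob/ob cells only, with 0.0169 in ob/ob and 0.00767 in wild-type cells (at least 1.36-fold). Ugt3a2, whose human counterpart uses UDP-glucose or UDP-xylose in place of UDP-glucuronic acid, read 0.105 in ob/ob and 0.0227 in wild-type cells, a difference of 2.21 or 4.62-fold. Its second probe was measured on neither array, and its wild-type signal of 22.4 before scaling was weak. Ugt3a1 read 0.0266 in ob/ob and 0.00853 in wild-type cells and was measured on the ob/ob array only (at least 2.13-fold). Ugt8a, which makes galactosylceramide of myelin, was measured on neither array.

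Across the class, 12 of 14 glucuronosyltransferases were measured in ob/ob cells and 6 in wild-type cells. Of the 6 measured on the ob/ob array alone, 3 were at least 2-fold higher by their bound, and with bounds included the class median was 1.93. A gene measured on the ob/ob array alone cannot enter that median with a negative value, so the median lends no further weight to the direction. All 6 differences stayed positive except with normexp and the 75th percentile, where Ugt2a3 was -0.86 and Ugt3a2 -0.33 and the class median 0.27. Ugt1a6a was 0.92 with array-median scaling, just inside 2-fold.

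Among the sulfotransferases, Sult1e1, the estrogen sulfotransferase, read 0.228 in ob/ob and 0.0185 in wild-type cells, a difference of 3.62 or 12.3-fold, the largest of all members measured on both arrays as scaled here. Sult1a1, which acts on phenols, read 0.0538 in ob/ob and 0.0236 in wild-type cells (1.19, or 2.28-fold), with 1.23 on its second probe. The Sult1a1 difference was -0.90 with normexp and the 75th percentile, and Sult1e1 was then 0.40. The wild-type signals of Sult1e1 and Sult1a1, 18.3 and 23.4 before scaling, were not far above the dimmest that array measured, 12.3. The folds of both thus rest on weak wild-type signals. Sult4a1, known from brain, read 0.0319 in ob/ob and 0.0407 in wild-type cells (-0.35). Sult2a1, which acts on hydroxysteroids and bile acids, was measured in ob/ob cells only, with 0.0253 in ob/ob and 0.00454 in wild-type cells (at least 2.03-fold). Sult5a1 was also measured in ob/ob cells only, with 0.0110 in ob/ob and 0.00658 in wild-type cells, too dim for a bound above 1. Sult1c1 was the reverse, measured on the wild-type array only, with 0.00169 in ob/ob and 0.0128 in wild-type cells, at least 1.57-fold lower in ob/ob cells. The other 6, Sult1b1, Sult1c2, Sult1d1, Sult2b1, Sult3a1 and Sult6b1, were measured on neither array. Signals of the 9 members measured on neither array lay between 2.44 and 11.6 before scaling, too dim for a difference to be given.

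Genes that supply these enzymes or act beside them were described by list. Of 20 measured genes of glutathione synthesis, recycling and breakdown, 3 were at least 2-fold higher and 1 lower (median -0.22). They were Glrx, a glutaredoxin (1.93), Ggt7 (1.76) and the peptidase Anpep (1.02) on the higher side, and Gclm, the modifier subunit of the rate-limiting enzyme of glutathione synthesis, on the lower side (-1.71). Of 11 glutathione peroxidases and peroxiredoxins 1 was lower, Prdx6 at -1.02, and none was higher; Prdx5 was 0.85, Prdx1 -0.65 and Gpx8 0.28. On the list drawn up for UDP-glucuronic acid supply and use, 10 genes were measured and only Nudt12 passed 2-fold (-1.09). Nudt12 and Slc35a3 of that list are not known to supply or use UDP-glucuronic acid. The Nudt12 signals were also dim, 35.4 in ob/ob and 52.2 in wild-type cells before scaling. Ugdh, which makes UDP-glucuronic acid, was -0.48. None of 12 genes of PAPS supply and sulfate handling passed 2-fold; Papss2, a PAPS synthase, was 0.86, the steroid sulfatase Sts -0.78 and the tyrosylprotein sulfotransferase Tpst2 -0.73. The medians of these lists ranged from -0.31 to 0.12, beside -0.12 over all genes.

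Of 6 exporters of conjugates, Abcc3 was higher (1.13) and Abcc4 lower (-1.69), while Abcc1 was -0.56 and Abcc5 -0.43. Of 24 other detoxification enzymes 5 were at least 2-fold higher and 2 lower as scaled here. After normexp and 75th-percentile scaling 0 were higher and 4 lower, where 369 of all 18139 genes were higher and 3828 lower. The 4 with the largest differences were the carboxylesterases Ces1f (3.52), Ces1d (3.10), Ces2a (1.94) and Ces3a (1.56). Of 18 regulators, the xenobiotic sensor Ahr was lower (-1.41) and the hepatocyte factor Hnf4a higher (1.24); the receptor Nr1i3 was -0.82 and the NRF2 antagonist Bach1 -0.63. The 20 NRF2 targets outside the transferases, a list that shares genes with the others and was chosen with results of these data known, had none higher and 9 at least 2-fold lower, where 2.29% of all genes were, with a median of -0.97. The count was 15 with array-median scaling, 6 with quantile normalization and 5 with normexp and quantile normalization. The range of their median over the processing alternatives was -0.79 to -1.25, and the 4 with the largest differences were Gclm (-1.71), Abcc4 (-1.69), Osgin1 (-1.56) and the quinone reductase Nqo1 (-1.49). Gsta3, Gstm1 and Gstp1 were lower in the same comparison, and a link between them and this list was not tested.

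**Figure D4:**
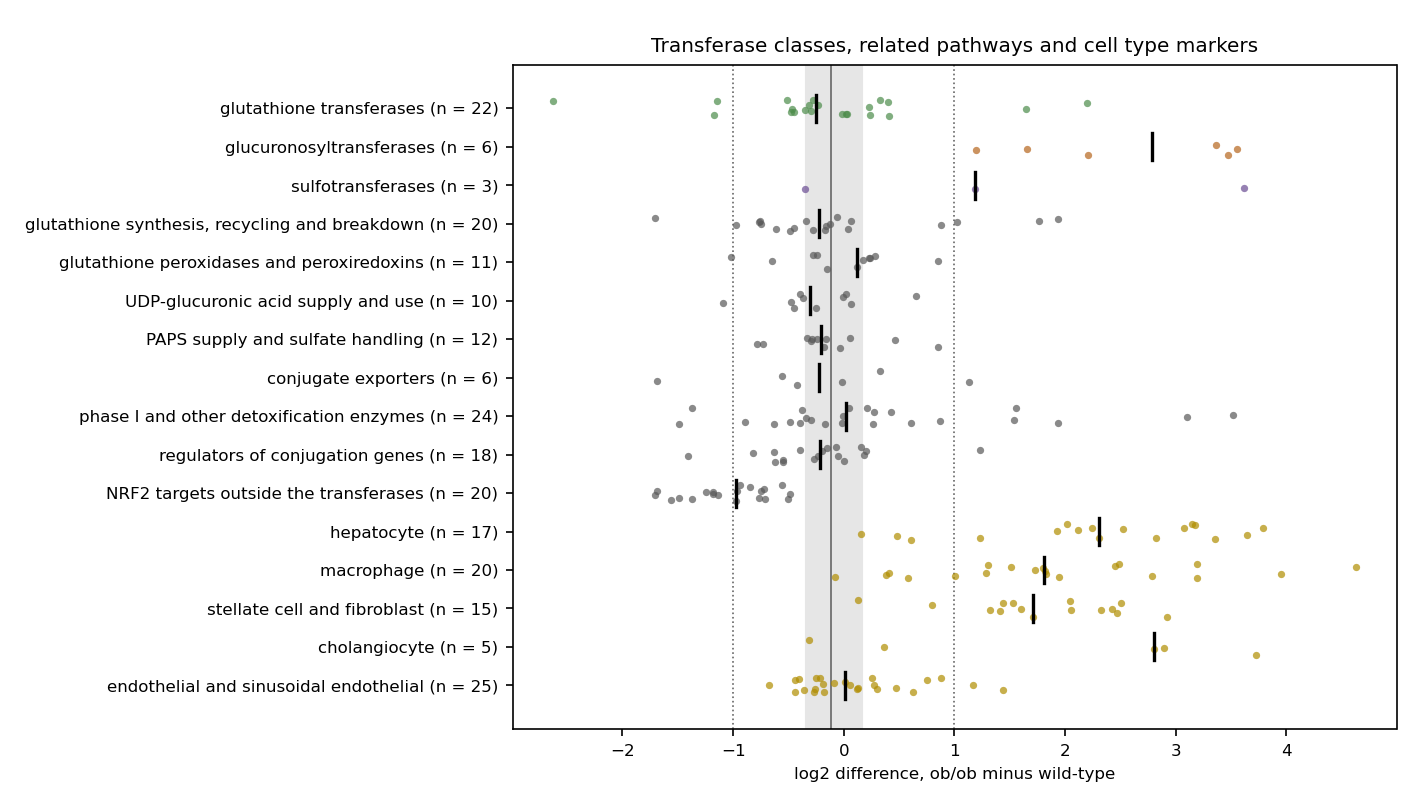
The log2 difference, ob/ob minus wild-type, of every gene measured on both arrays in the transferase classes (coloured), the related pathways (grey) and the cell type marker lists (gold), with list medians as black bars; the grey band and the dotted lines are as in the plot of single members. Glucuronosyltransferases (median 2.78) and the hepatocyte, macrophage and stellate cell markers lie mostly to the right, and the NRF2 targets (median -0.97) to the left.

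Markers were checked against the labelled cell type. The counts stand beside 5.82% of all genes at least 2-fold higher, 2.29% at least 2-fold lower, and 6766 of 18139 with a positive difference. With normexp and the 75th percentile 369 of all genes were higher and 3828 lower, and with normexp and quantile normalization 508 and 130. All 25 endothelial and sinusoidal endothelial markers were measured on both arrays, with a median difference of 0.01, and 2 were at least 2-fold higher, Vwf (1.44) and Plvap (1.17). Their summed scaled signal was 162 in ob/ob and 191 in wild-type cells, and Stab2, the hyaluronan receptor of LSEC, read 6.27 in ob/ob and 7.11 in wild-type cells. Most markers of hepatocytes, macrophages and stellate cells were higher in ob/ob cells. Of 17 hepatocyte markers measured on both arrays 14 were at least 2-fold higher and all 17 differences were positive, against 10 higher, 2 lower and 13 positive with normexp and the 75th percentile and 16 positive with array-median scaling, quantile normalization or normexp with quantile normalization. Their median was 2.31 (1.59 with normexp and the 75th percentile). The summed scaled signal of all 24 hepatocyte markers on the array was 45.4 in ob/ob and 8.66 in wild-type cells. Albumin (Alb) read 13.8 in ob/ob and 1.55 in wild-type cells (3.15). Another 3 hepatocyte markers were measured in ob/ob cells alone, and Tdo2, Cps1, Cyp1a2 and Cyp7a1 were measured on neither.

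Of 20 macrophage markers 16 were at least 2-fold higher (median 1.81) and of 15 stellate cell and fibroblast markers 13 (median 1.71), where 5.82% of all genes were. The summed scaled signal of all 22 macrophage markers on the array was 194 in ob/ob and 71.2 in wild-type cells. For all 17 stellate cell and fibroblast markers it was 40.7 in ob/ob and 10.5 in wild-type cells. Bright probes weigh most in such sums: Dcn alone read 33.2 in ob/ob and 8.00 in wild-type cells. With normexp and the 75th percentile 15 of the macrophage markers and 4 of the stellate cell markers were higher (medians 1.53 and 0.37), and with normexp and quantile normalization 16 and 9. Of the 5 cholangiocyte markers measured on both arrays, Spp1 (3.73), Krt8 (2.90) and Krt18 (2.81) were higher, Tspan8 was 0.36 and Cftr -0.31. Cldn4 was measured in wild-type cells only, at least 9.58-fold lower in ob/ob cells, and Krt7, Krt19, Epcam, Sox9 and Cdh1 in ob/ob cells only. The glucuronosyltransferase median of 2.78 and the Sult1e1 difference thus lay in the same direction as the hepatocyte, macrophage and stellate cell markers, and the part of other cells in them was not tested. In a bulk RNA sample, a difference in the number of cells of a type and a difference in RNA per cell cannot be told apart. Lep, the gene mutated in ob/ob mice, gave no signal well above background in either sample and so says nothing of the genotype labels.

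**Figure D5:**
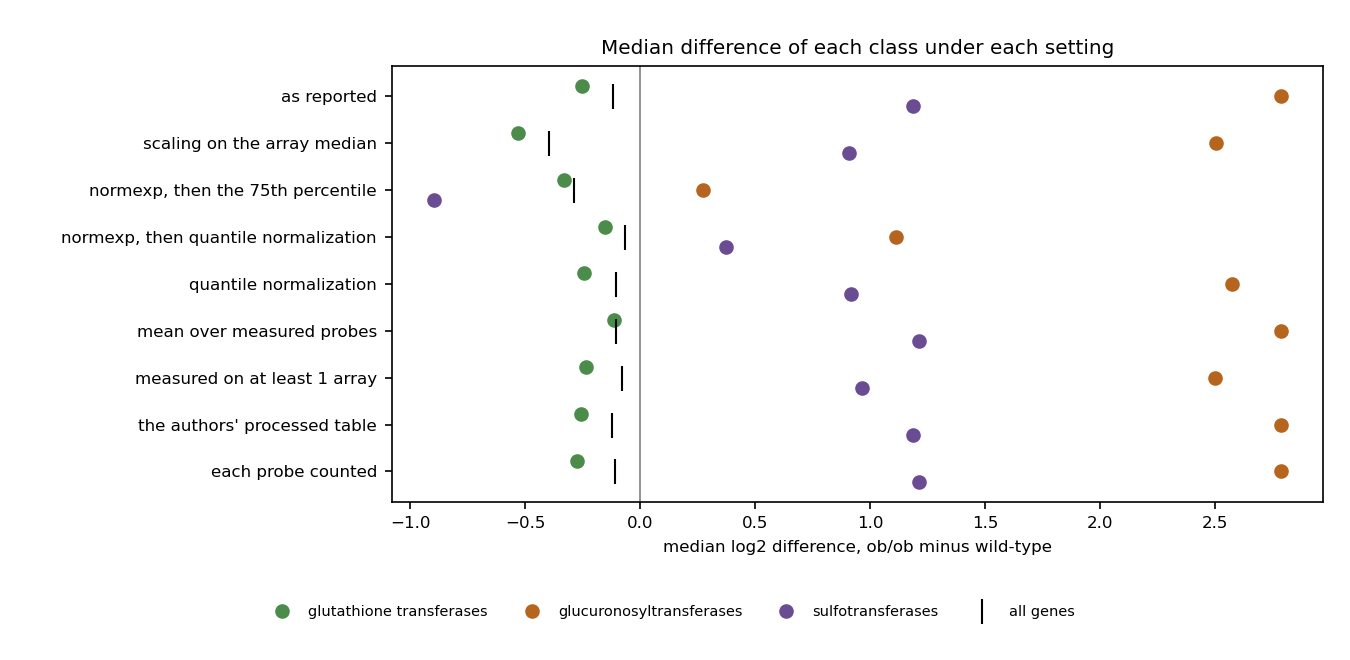
Median log2 difference, ob/ob minus wild-type, of the 3 classes (coloured points) and of all genes (black bars) as reported and under 8 other ways of processing. The glutathione transferase median lies below the other 2 except with normexp and the 75th percentile, where the sulfotransferase median is -0.90.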

How the data were processed

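Total RNA of 1 ob/ob and 1 wild-type LSEC sample was measured on 1-colour arrays. The deposited scanner files hold spot intensity; background and spatial trends were removed and spots flagged by Agilent Feature Extraction 11.0.1.1, a version the submitters' processing notes give, per the file headers. The ob/ob file gives signals with 3 digits. The authors' deposited table holds, for 24868 spots, the ratio of that intensity to the array's 75th percentile, not centred per gene, with column medians of 0.648 for ob/ob and 0.614 for wild-type.

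From these files, log2 of the processed signal minus log2 of the array's 75th percentile over 43020 non-control spots was computed, without spots flagged as outliers (120 on the ob/ob and 148 on the wild-type array). Spots well above background numbered 27873 (64.8%) on the ob/ob and 25224 (58.6%) on the wild-type array, and none was saturated. Local background at members was 50 to 66 on the ob/ob and 51 to 70.5 on the wild-type array, which has a bright patch reaching 3324 elsewhere. Repeat spots were averaged, and each gene was read by its brightest probe (mean of both arrays). Calls are 2-fold differences, and precision is limited by having 1 array a genotype. Software was Python 3.11.15, numpy 2.4.6, pandas 2.3.3, scipy 1.17.1 and, for normexp (offset 50), limma 3.58.1 in R 4.3.3; the code was tested on simulated data.

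Members are named by the name the wild-type file gives, which the RefSeq table of GRCm38.p6 left unchanged for all 50; other genes were renamed through accessions. Every member measured on at least 1 array is named, and of each pathway list up to 4 genes with the largest difference; marker genes and Ugdh were named after their values were seen. The members and lists were chosen with earlier results of these data known. The alternatives were array-median scaling, normexp with the 75th percentile or quantile normalization, quantile normalization, averaging probes, genes measured on at least 1 array, the authors' table, and counting each probe.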

Additional observations from a re-analysis of the deposited data

How the results depend on the processing

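No paired analysis was possible because each genotype has 1 array, and for the same reason no replicate could be left out. Normexp with the 75th percentile changed most. The glucuronosyltransferase median was then 0.27 with 2 genes at least 2-fold higher, the sulfotransferase median -0.90 with 0 higher and 1 lower, the glutathione transferases had 0 higher and 4 lower (Gsta3, Gstm4, Gstm6 and Mgst2), and the gap between classes was -0.54. All genes had 369 higher and 3828 lower. Gstt3 (-0.18), Sult1a1 (-0.90), Ugt2a3 (-0.86) and Ugt3a2 (-0.33), all at least 2-fold higher as reported, turned negative, as did Mgst2 (-1.10), Mgst3 (-0.28), Gsto2 (-0.57) and Gstt2 (-0.08). Gstm4 (-1.16), Gstm6 (-1.57) and Sult4a1 (-1.46) passed 2-fold. The hepatocyte, stellate cell and detoxification lists also moved. By construction this setting gives -0.35 to a spot with no signal on either array; beyond that, the cause was not tested. Normexp with quantile normalization gave medians of 1.11 for glucuronosyltransferases and 0.37 for sulfotransferases (1 higher), 1 higher and 1 lower glutathione transferase, a gap of -1.17, and 508 higher and 130 lower over all genes.

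Quantile normalization alone left 1 lower glutathione transferase and 1 higher sulfotransferase, and gave 915 higher and 556 lower over all genes. Array-median scaling left 1 higher sulfotransferase and gave 767 higher and 977 lower over all genes. Counting genes measured on at least 1 array gave 12 higher glucuronosyltransferases, 1 lower sulfotransferase, and 2160 higher and 670 lower over all genes; this setting takes unmeasured signals at face value, and by their bounds only 3 of the 6 added glucuronosyltransferases pass 2-fold and the sulfotransferase, Sult1c1, does not. Counting each probe gave 5 lower and 3 higher glutathione transferase probes, where the probes of all genes gave 1234 higher and 483 lower. The 5 lower ones belong to the same genes, Gsta3, Gstm1 and Gstp1. With the mean over probes the glutathione transferase median was -0.11 and 2 of them were lower, with 1054 higher and 388 lower over all genes. Medians of the glutathione transferases were negative in all 8 alternatives (-0.11 to -0.53). The all-gene median was negative in all 8 as well (-0.07 to -0.40), so the sign alone does not set the class apart. Relative to the all-gene median the class lay between -0.01, with the mean over probes, and -0.16, with each probe counted. The 9 members measured on neither array and the 10 measured on 1 have no difference or only a bound.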
